A study of Homo sapiens with 5 samples.

Results

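The 9 genes described here were followed through 5 single-cell libraries of human brain organoids: 6 genes known from outer radial glia (HOPX, TNC, PTPRZ1, FAM107A, LIFR and MOXD1) and 3 genes of cytoplasmic intermediate filaments (GFAP, VIM and NES). These 9 of 32732 genes, listed in the human annotations of all 5 libraries, were chosen by name and measured in progenitors, in glial progenitors marked by OLIG1 or EGFR and in astrocytes. Cells were classed by other marker genes only, and the 9 genes were removed before clustering. The organoids came from H9, an established human embryonic stem cell line, in a derivative that carries ChR2, a light-gated channel, and the fluorescent protein EYFP at the AAVS locus.

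Group D0 held organoids on day 42 of culture, the day of transplantation, which never entered a host. The 4 graft groups held organoids taken from the brains of SCID-Beige mice, an immunodeficient strain, 2 or 4 months post transplantation (MPT), from the hippocampus (HIP_2MPT and HIP_4MPT) or the prefrontal cortex (PFC_2MPT and PFC_4MPT). Each group was 1 library from 1 stem cell line, and per the study D0 held many organoids and the graft libraries together several host brains. How the brains were divided among the 4 graft libraries is not given in the sources used here. With 1 library a group, the HIP and PFC libraries of a stage served as its replicates. D0 was dissociated with TrypLE and the grafts with Trypsin-EDTA.

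Outer radial glia are neural stem cells of the developing human cortex. They lie in the outer subventricular zone, keep a fibre towards the surface of the brain, and give rise to neurons and later to glia. Tenascin C (TNC) is a protein of their matrix, PTPRZ1 is a receptor phosphatase that binds tenascin and the growth factors pleiotrophin and midkine, and LIFR is a receptor for leukaemia inhibitory factor and related cytokines. HOPX is a small homeodomain protein that does not bind DNA itself, FAM107A is an actin-associated protein, and MOXD1 is a monooxygenase-like protein of the endoplasmic reticulum. Vimentin (VIM) and nestin (NES) build the intermediate filaments of neural stem cells, and GFAP is the filament protein typical of astrocytes that human radial glia also make.

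In GRCh38, HOPX (ENSG00000171476) lies at chr4:56647989-56681877, TNC (ENSG00000041982) at chr9:115019575-115118207, FAM107A (ENSG00000168309) at chr3:58564117-58627610, LIFR (ENSG00000113594) at chr5:38474668-38608354, MOXD1 (ENSG00000079931) at chr6:132296055-132401475, GFAP (ENSG00000131095) at chr17:44903159-44916937 and NES (ENSG00000132688) at chr1:156668763-156677407, all on the minus strand. PTPRZ1 (ENSG00000106278) at chr7:121873089-122062036 and VIM (ENSG00000026025) at chr10:17228241-17237593 lie on the plus strand. TNC was higher in grafts than in D0, and VIM and NES were both lower, so the 250 bases before their start sites are shown, from RefSeq (GRCh38.p14), read 5′ to 3′ on the strand of the gene. Capitals mark a TATAA or a GGGCGG (GC box) on either strand.
TNC, chr9:115118158-115118407, minus strand: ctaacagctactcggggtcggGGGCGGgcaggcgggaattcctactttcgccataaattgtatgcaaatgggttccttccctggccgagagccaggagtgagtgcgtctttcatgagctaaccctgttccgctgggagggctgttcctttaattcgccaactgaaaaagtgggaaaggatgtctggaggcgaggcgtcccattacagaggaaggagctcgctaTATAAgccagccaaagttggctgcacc
VIM, chr10:17227991-17228240, plus strand: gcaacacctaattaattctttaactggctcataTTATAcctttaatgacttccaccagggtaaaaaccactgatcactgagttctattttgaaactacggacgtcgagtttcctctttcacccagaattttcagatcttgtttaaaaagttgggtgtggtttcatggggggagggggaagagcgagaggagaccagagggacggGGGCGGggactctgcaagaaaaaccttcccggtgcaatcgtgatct
NES, chr1:156677408-156677657, minus strand: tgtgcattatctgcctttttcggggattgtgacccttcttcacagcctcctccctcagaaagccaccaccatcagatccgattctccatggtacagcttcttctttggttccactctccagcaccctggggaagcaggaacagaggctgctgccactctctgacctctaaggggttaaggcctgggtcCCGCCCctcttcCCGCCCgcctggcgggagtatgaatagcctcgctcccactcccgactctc
The TNC window held a TATAA at -27 from the RefSeq start site and a GC box at -229. The gene range given above for TNC reaches to chr9:115118207, so the end of this window, with the TATAA, lies inside that range. The VIM and NES windows lie outside the ranges of their genes. The VIM window held a GC box at -46 and a TATAA on the other strand at -217, and the NES window held 2 GC boxes, both on the other strand, at -62 and -50, and no TATAA. Of 35116 promoter windows of this length, 18.9% held TATAA and 42.6% held GGGCGG. RefSeq windows matched 8 of the 9 genes (13 windows in all), with GFAP missing. The letters TTCNNNGAA, to which STAT factors bind, were searched on both strands and occurred in 2 of 3 LIFR windows and in no window of the other 7 genes, against 6.57% of all windows.

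A unique molecular identifier (UMI) tags 1 RNA molecule, and the deposited counts were UMIs per gene and cell. After filters on depth, mitochondrial share and species, 4885 human cells remained in D0, 8277 (HIP) and 5952 (PFC) at 2MPT, and 6913 (HIP) and 8363 (PFC) at 4MPT. D0 was far deeper, with a median of 9847 UMIs per cell against 1253 to 2759 in grafts, and HIP_2MPT was the shallowest. Pairs of libraries shared 6 to 20 cell barcodes. Clustering gave 29 clusters. Progenitor-like cells were 5 clusters with 2129 cells in D0, 547 (HIP) and 677 (PFC) at 2MPT, and 534 (HIP) and 514 (PFC) at 4MPT. Cycling cells, 2 of these clusters, made up 28.8% of the class in D0 and 44.2 to 54.8% in grafts, and cluster 13, a radial glia cluster led by ID3 and IGFBP2, held 788 of the progenitor-like cells in D0 and 59 to 121 in each graft library. Cluster 19, a radial glia cluster with DDIT4, HES5 and VEGFA among its leading genes, held 302 progenitor-like cells in D0. It held 31 (HIP) and 140 (PFC) at 2MPT, and 163 (HIP) and 153 (PFC) at 4MPT. Glial-progenitor-like cells, 1 cluster led by GSX1, OLIG1 and EGFR, were 0 in D0, 5 and 24 at 2MPT, and 654 (HIP) and 438 (PFC) at 4MPT. Astrocyte-like cells, clusters 12 and 21, were 74, 290, 312, 682 and 545 in the same order of libraries. Cluster 26, with 340 cells led by OBI1-AS1, KIRREL3 and LTBP1, scored highest for astrocyte markers (1.93) but got no name. It is in none of these classes.

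The labels were checked against defining markers, as CPM, the UMIs of a gene scaled to a common total of the UMIs of the class. Astrocyte-like cells at 4MPT had AQP4, the astrocyte water channel, at 535 (HIP) and 341 CPM (PFC), and the 9 astrocyte markers summed to 11188 and 6958 CPM. In D0 the sum was 478 CPM with AQP4 and GJB6 at 0, and at 2MPT it was 1446 (HIP) and 2358 CPM (PFC), so these markers were far lower in the same clusters before 4MPT. The cells are called astrocyte-like by cluster only. They were also high in 8 radial glia markers, which summed to 3070 CPM in D0, 2765 (HIP) and 4021 (PFC) at 2MPT, and 2988 (HIP) and 2438 (PFC) at 4MPT. In progenitor-like cells the same markers summed to 2749, 1521, 3083, 2248 and 1931 CPM in that order, lower in each library. In D0 and at 2MPT the radial glia sum of astrocyte-like cells also exceeded their astrocyte sum. When cells were classed one by one by UMIs of a few markers, astrocytes numbered 4 in D0, 2 in HIP_2MPT and 5 in PFC_2MPT. At 4MPT they numbered 252 (HIP) and 137 (PFC). In glial-progenitor-like cells at 4MPT, OLIG1 was at 2165 (HIP) and 1419 CPM (PFC) and EGFR at 725 and 447 CPM. Progenitor-like cells also differed in OLIG1, which was at 0.0770 CPM in D0, 14.1 (HIP) and 52.7 (PFC) at 2MPT, and 718 (HIP) and 352 (PFC) at 4MPT. Neuronal RNA moved with 1 library: 5 pan-neuronal genes summed to 1638 CPM in progenitor-like cells of HIP_2MPT and to 349 to 591 CPM in the other 4. The same genes summed to 1541 CPM in astrocyte-like cells of HIP_2MPT and to 386 to 513 CPM in those of the other 4. Markers of inhibitory neurons in progenitor-like cells summed to 148 (HIP) and 461 CPM (PFC) at 4MPT and to 3.88 to 21.2 CPM in the other 3 libraries, and those of intermediate progenitors to 483 and 508 CPM at 2MPT and 145 and 77.9 CPM at 4MPT. The median mitochondrial share of progenitor-like cells was 5.93% in PFC_4MPT and 2.19 to 3.48% elsewhere. Choroid plexus RNA moved with D0: 6 markers summed to 655 CPM in progenitor-like cells of D0, nearly all of it TTR, and to 1.81 to 24.4 CPM in grafts. The part of these differences in the results below was not tested, beyond leaving out graft libraries. Each was left out in turn where stages were compared with each other or with D0, and none could be for PFC against HIP.

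Of the 3 classes, astrocyte-like cells had the highest level of each of the 9 genes in each library, except for HOPX, VIM and GFAP in D0 and MOXD1 in HIP_2MPT, where progenitor-like cells were as high or higher. Intervals given for levels and shares are exact 95% intervals that cover counting error only. Classes were cut from the same cells, so the order of classes is a description without a test. Levels in neurons (2071 to 7378 cells per library) are given beside them. Neurons here also hold the intermediate progenitor clusters 1, 8 and 24, and cluster 25, named inhibitory neuron with a cycling progenitor score of 2.32. The class is thus not of mature neurons alone.

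TNC separated astrocyte-like cells from both progenitor classes. In astrocyte-like cells it was at 41.5 CPM in D0, 659 (HIP) and 832 (PFC) at 2MPT, and 705 (HIP) and 844 (PFC) at 4MPT. In the whole class the 4 graft libraries were close together and D0 lay far below them. In progenitor-like cells TNC was at 5.78, 181, 157, 94.4 and 117 CPM in the same order, and in glial-progenitor-like cells it was lower still, at 27.9 (HIP_4MPT) and 36.4 CPM (PFC_4MPT). Astrocyte-like over glial-progenitor-like cells gave a ratio of 25.3 (19.8 to 32.7) in HIP_4MPT and 23.2 (17.1 to 32.2) in PFC_4MPT. Glial-progenitor-like cells stood below progenitor-like cells by a ratio of 0.296 (HIP_4MPT) and 0.312 (PFC_4MPT), and neurons held 1.71 to 9.55 CPM. Within astrocyte-like cluster 12 alone, TNC ranged from 713 to 1213 CPM over the grafts, and both 4MPT libraries lay above both 2MPT libraries.

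PTPRZ1, the receptor for TNC, had another order. In astrocyte-like cells it was at 310 CPM in D0, 798 (HIP) and 1295 (PFC) at 2MPT, and 1661 (HIP) and 1525 (PFC) at 4MPT. In progenitor-like cells the levels were 164, 228, 415, 603 and 420 CPM. Glial-progenitor-like cells came between them at 1230 (HIP_4MPT) and 800 CPM (PFC_4MPT), and were thus above progenitor-like cells for the receptor and below them for its ligand TNC. Neurons were not free of it, at 163 to 296 CPM, and in D0 they were above progenitor-like cells (203 against 164 CPM, progenitor over neuron 0.809, 0.775 to 0.844). In HIP_2MPT the 2 did not stand apart (200 and 228 CPM, ratio 1.14, 0.983 to 1.31).

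HOPX varied widely between libraries within astrocyte-like cells. It was at 65.0 CPM in D0, 97.5 (HIP) and 298 (PFC) at 2MPT, and 581 (HIP) and 704 (PFC) at 4MPT. Both 4MPT libraries lay above both 2MPT libraries. Within cluster 12 alone, which held most of the class at 2MPT, that order did not hold, as PFC_2MPT lay above HIP_4MPT. In progenitor-like cells HOPX was at 68.1, 17.4, 57.4, 32.4 and 87.6 CPM, again without that order. In D0 the astrocyte-like clusters did not exceed progenitors (ratio 0.955, 0.727 to 1.23). Glial-progenitor-like cells had 146 (HIP_4MPT) and 140 CPM (PFC_4MPT), which was 4.52 (HIP) and 1.6 (PFC) times the progenitor level. Neurons had 1.76 to 13.5 CPM.

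LIFR had a narrow range, at 43.6 to 94.4 CPM in astrocyte-like, 21.3 to 48.9 in progenitor-like and 41.5 to 57.9 in glial-progenitor-like cells, against 8.69 to 16.8 CPM in neurons. Its level in glial-progenitor-like cells did not stand apart from that in progenitor-like cells beyond counting error (ratio 1.18, 0.923 to 1.52, in HIP_4MPT and 1.21, 0.806 to 1.80, in PFC_4MPT). FAM107A was at 131, 136, 150, 64.3 and 138 CPM in astrocyte-like cells from D0 to PFC_4MPT, so D0 was as high as grafts and HIP_4MPT alone was low. It was almost missing from glial-progenitor-like cells, at 1.67 (HIP_4MPT) and 5.08 CPM (PFC_4MPT), no higher than in neurons of the same libraries (3.39 and 8.10 CPM). MOXD1 rested on 2 to 151 UMIs per library in astrocyte-like cells, at 5.13 to 52.8 CPM there and 1.31 to 41.2 CPM in progenitor-like cells. HIP_4MPT had its highest level in each of the 3 classes.

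Vimentin was highest in D0 in progenitor-like cells, astrocyte-like cells and neurons. In progenitor-like cells VIM was at 5973 CPM in D0, 1051 (HIP) and 2103 (PFC) at 2MPT, and 955 (HIP) and 876 (PFC) at 4MPT. In neurons it was at 1764 CPM in D0 and 70.9 to 91.0 CPM in grafts. In astrocyte-like cells it was at 5905, 2036, 4278, 3011 and 2641 CPM, so that grafted astrocyte-like cells kept 1.94 to 3.15 times the level of progenitor-like cells while the ratio in D0 was 0.989 (0.962 to 1.02). Glial-progenitor-like cells had the lowest VIM of the 3 classes at 4MPT, 411 (HIP) and 509 CPM (PFC), which was 0.430 and 0.581 of the progenitor level.

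NES followed the same direction on a smaller scale. In progenitor-like cells it was at 146 CPM in D0, 52.1 (HIP) and 47.7 (PFC) at 2MPT, and 29.3 (HIP) and 38.1 (PFC) at 4MPT, and in astrocyte-like cells at 195, 144, 92.3, 55.2 and 65.6 CPM. D0 was highest in both classes. GFAP did the reverse. It was at 0 UMIs in astrocyte-like cells of D0, which allows up to 3.20 CPM, and at 205, 233, 150 and 202 CPM in those of the 4 graft libraries. In progenitor-like cells it rested on 4 UMIs in D0 (0.154 CPM, 0.0420 to 0.394), against 64.1 (HIP) and 78.3 (PFC) at 2MPT, and 23.1 (HIP) and 60.4 CPM (PFC) at 4MPT. Glial-progenitor-like cells had 36.2 (HIP_4MPT) and 49.97 CPM (PFC_4MPT), and neurons at most 8.27 CPM.

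**Figure D1:**
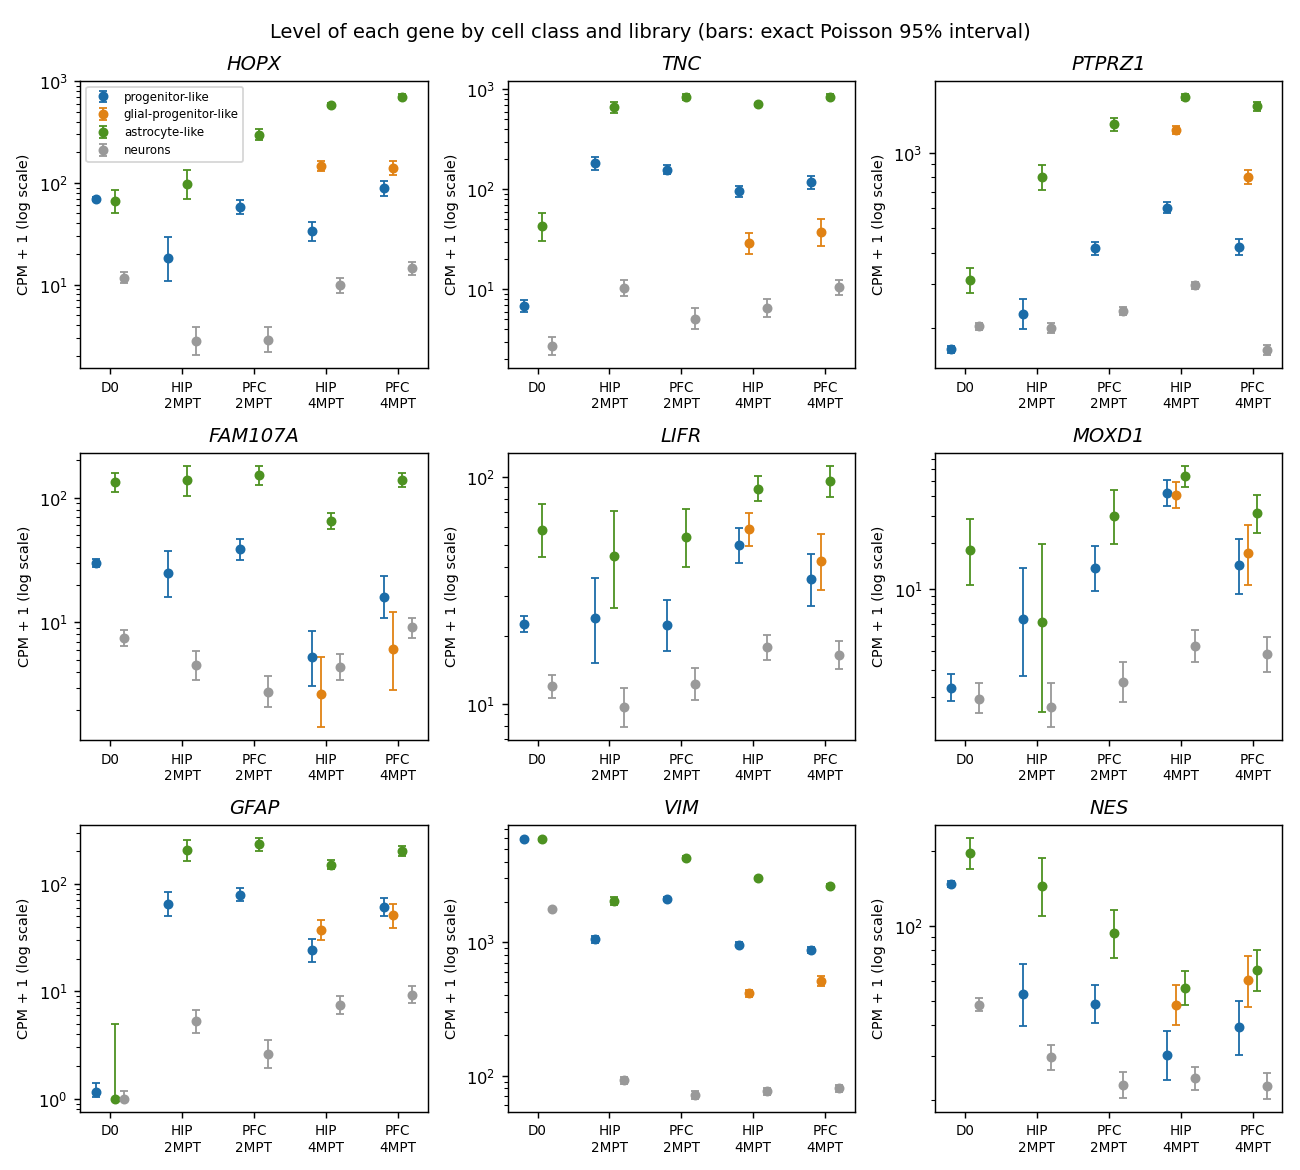
Level of each of the 9 genes in 4 cell classes by library, as CPM + 1 on a log axis, with exact 95% Poisson intervals of the counts (classes with under 50 cells in a library are not drawn). Astrocyte-like cells are highest for TNC in every library, VIM is highest in D0, and GFAP is at or near 0 in D0.

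Shares of cells with a UMI were compared after thinning every cell to 1000 UMIs, which left 72 to 669 astrocyte-like cells per library. HOPX was seen in 6.94% of these in D0, 5.53% (HIP) and 22.7% (PFC) at 2MPT, and 37.5% (HIP) and 44.5% (PFC) at 4MPT, while thinned neurons, drawn from the same libraries with median depths of 1243 to 8509 UMIs, had 0.2 to 1.2%. TNC was seen in 1.39% of thinned astrocyte-like cells of D0 and in 43.0 to 51.8% of those of grafts, against 0.1 to 0.9% of neurons. Without thinning the shares in D0 were 29.7% for HOPX and 17.6% for TNC. The 6 outer radial glia genes were also counted together in each thinned cell. Of astrocyte-like cells, 6.94% in D0 (2.29 to 15.5), 33.6% (HIP, 27.4 to 40.4) and 51.0% (PFC, 45.2 to 56.7) at 2MPT, and 61.6% (HIP, 57.8 to 65.3) and 68.5% (PFC, 64.4 to 72.4) at 4MPT held a UMI of 2 or more of the 6. Both 4MPT libraries lay above both 2MPT libraries, with 1 library for each site and stage. Progenitor-like cells had 2.51% in D0 and 6.58 to 10.2% in grafts, and glial-progenitor-like cells 15.3% (HIP_4MPT) and 9.45% (PFC_4MPT). Neurons stayed at 0.279 to 1.26%.

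**Figure D2:**
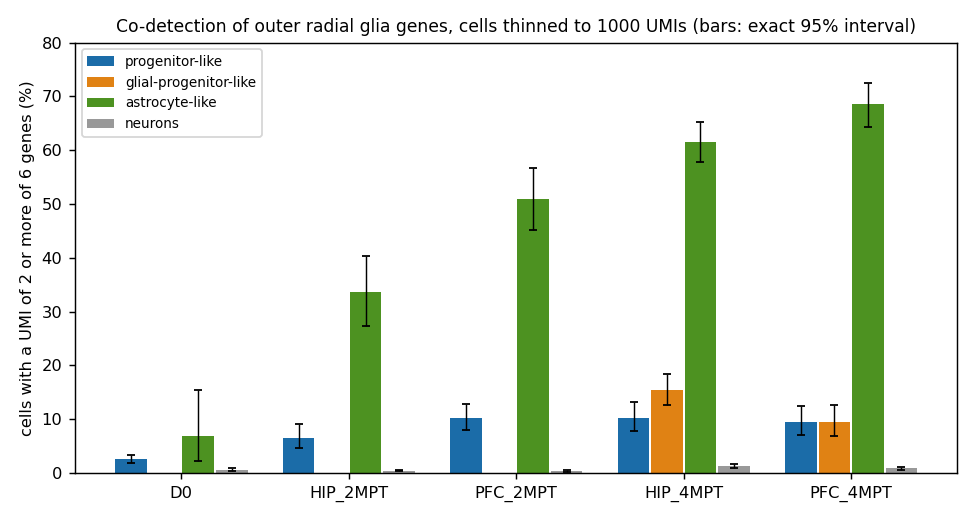
Percent of cells, each thinned to 1000 UMIs, that held a UMI of 2 or more of the 6 outer radial glia genes, by class and library, with exact 95% Clopper-Pearson intervals. Bars of astrocyte-like cells stand at 6.94% in D0 and 68.5% in PFC_4MPT, and bars of neurons stay at or under 1.26%.

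The genes were not spread evenly within a class. Among progenitors, cycling cells had less TNC than radial glia in each graft library (ratios 0.268 to 0.500) and less GFAP (0.141 to 0.416), whereas in D0 the TNC ratio was 1.28 (0.917 to 1.79). HOPX ratios were 0.550 to 0.830 over the 5 libraries, with an interval that includes 1 in HIP_2MPT. VIM was lower in cycling cells in 4 libraries (0.482 to 0.901) and higher in HIP_4MPT (1.42, 1.31 to 1.54). In cluster 13 HOPX was above the level of the whole class in each library, at 73.7 CPM in D0, 38.0 (HIP) and 136 (PFC) at 2MPT, and 115 (HIP) and 260 (PFC) at 4MPT, and TNC, at 3.90, 373, 367, 151 and 397 CPM, was above it in the grafts.

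The 2 astrocyte-like clusters split the genes at 4MPT. Cluster 21, led by SPARCL1, CST3 and APOE, had HOPX at 1020 CPM against 239 in cluster 12 of HIP_4MPT (ratio 4.27, 3.80 to 4.80), and at 973 against 427 in PFC_4MPT (2.28, 2.00 to 2.59). GFAP was higher in the same cluster, at 249 against 72.2 CPM in HIP_4MPT and 281 against 121 CPM in PFC_4MPT. TNC went the other way, at 388 against 953 CPM in HIP_4MPT and 484 against 1213 CPM in PFC_4MPT, and so did VIM, with ratios of 0.453 and 0.523. PTPRZ1 was nearly even (1.15 and 1.13). Cluster 12, led by MT1E, APOE and MT2A, held 70 of the 74 astrocyte-like cells of D0. Cluster 21 made up 13.4% (HIP) and 7.05% (PFC) of the class at 2MPT and 51.0 and 51.6% at 4MPT. In single thinned cells at 4MPT (HIP and PFC together), GFAP was seen in 19.6% (16.2 to 23.4) of 490 astrocyte-like cells with a HOPX UMI and in 11.6% (9.34 to 14.2) of 716 without one, and TNC in 42.2% (37.8 to 46.8) and 50.1% (46.4 to 53.9). In glial-progenitor-like cells VIM was seen in 47.5% (39.0 to 56.1) of 139 cells with a HOPX UMI and in 25.8% (23.0 to 28.7) of 947 without. Cells of these 2 libraries are not replicates, and the shares are descriptions. The shares of astrocyte-like cells pool clusters 12 and 21, which split HOPX, GFAP and TNC in the same directions. They were not taken within a cluster.

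**Figure D3:**
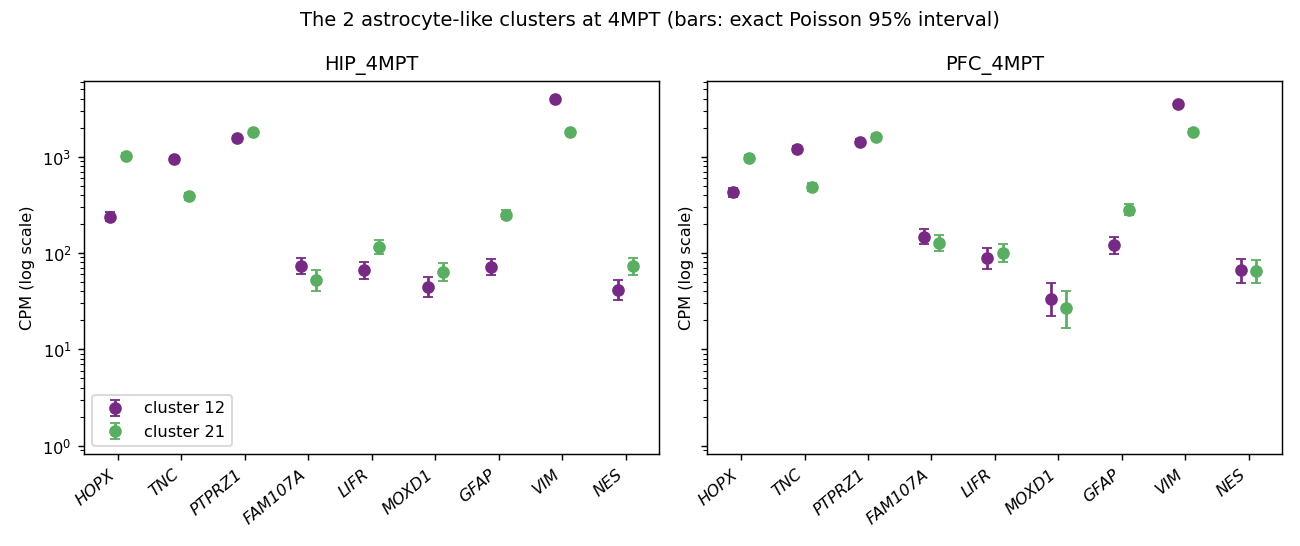
CPM of the 9 genes in astrocyte-like clusters 12 and 21 of the 4MPT libraries, on a log axis with exact 95% Poisson intervals. HOPX and GFAP are higher in cluster 21 and TNC and VIM in cluster 12, in both libraries.

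Grafts were compared with D0 in progenitor-like cells only, with edgeR's quasi-likelihood test on UMIs summed per library. Astrocyte-like cells (74 in D0) also had enough cells in all 5 libraries, but a change from D0 was not tested in them. A log2 fold change of 1 is a doubling. Errors of fold changes are approximate standard errors, the absolute log2 fold change divided by the square root of the test's F statistic. The adjusted p is the Benjamini-Hochberg value over all genes tested, with a threshold of 0.05. At 2MPT against D0 the test called 36.5% of 13755 genes (21.8% higher and 14.8% lower), so a call here is common, and 5 of the 9 genes were called. All 9 passed the filter on low counts here and in each comparison below. Culture against graft, the dissociation enzyme, the counting software and depth all differ between D0 and grafts and cannot be told apart.

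GFAP rose by 8.33 ± 0.74 (adjusted p = 2.44e-07, edgeR), a size that rests on the 4 UMIs of D0. TNC rose by 4.48 ± 0.40 (adjusted p = 2.42e-07), with all 4 graft libraries above D0. MOXD1 rose by 2.56 ± 0.64 (adjusted p = 0.0046), but its level at 2MPT was low, at 5.43 (HIP) and 12.8 CPM (PFC) against 1.31 CPM in D0. Without PFC_2MPT the MOXD1 change was 1.57 (adjusted p = 0.15), and with cells thinned to 1000 UMIs, an alternative chosen after the data had been seen, the adjusted p was 0.111. VIM fell by 2.29 ± 0.32 on the log2 scale (adjusted p = 2.56e-05) and NES by 1.94 ± 0.31 (adjusted p = 0.000117). The filament genes thus did not move as 1 group. HOPX (-1.12 ± 0.51, adjusted p = 0.0937), PTPRZ1 (0.61 ± 0.36, adjusted p = 0.205), FAM107A (-0.23 ± 0.45, adjusted p = 0.727) and LIFR (-0.35 ± 0.36, adjusted p = 0.476) were not called. HOPX was called lower in 4 of 15 alternatives, with no filter on low counts (-1.27, adjusted p = 0.00151), without PFC_2MPT (-2.44, adjusted p = 2.61e-05), without HIP_4MPT (-1.16, adjusted p = 0.0317) and without PFC_4MPT (-1.12, adjusted p = 0.0314), and PTPRZ1 was called higher in 2, without HIP_2MPT (0.95, adjusted p = 0.0471) and with cells classed one by one by UMIs of a few markers (1.36, adjusted p = 0.0266).

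At 4MPT against the same D0 library, 38.7% of genes were called (22.7% higher and 15.9% lower), and 7 of the 9 genes. TNC rose by 3.95 ± 0.39 (adjusted p = 5.42e-07, edgeR), GFAP by 7.67 ± 0.73 (adjusted p = 4.36e-07), MOXD1 by 4.15 ± 0.64 (adjusted p = 6.39e-05) and PTPRZ1 by 1.40 ± 0.38 (adjusted p = 0.00678). VIM fell by 2.94 ± 0.32 (adjusted p = 1.71e-06) and NES by 2.37 ± 0.32 (adjusted p = 1.4e-05). FAM107A fell by 1.91 ± 0.49 (adjusted p = 0.00481), from 28.9 CPM in D0 to 4.24 in HIP_4MPT and 15.1 in PFC_4MPT. That call was lost without HIP_4MPT (-1.16, adjusted p = 0.0777) and when cells were classed one by one (-0.17, adjusted p = 0.783). HOPX (-0.43 ± 0.51, adjusted p = 0.529) and LIFR (0.72 ± 0.35, adjusted p = 0.11) were not called, though HOPX was called lower without PFC_4MPT (-1.34, adjusted p = 0.0364). Over the 9 genes the median log2 change was -0.23 at 2MPT and 0.72 at 4MPT, beside 0.05 and 0.03 over all genes tested.

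**Figure D4:**
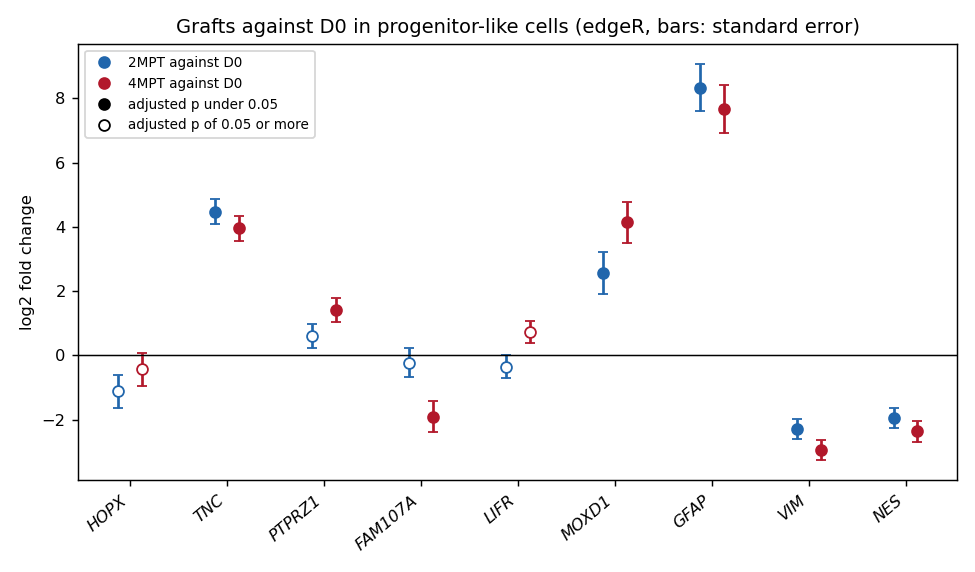
Log2 fold changes of the 9 genes in progenitor-like cells at 2MPT and 4MPT against D0 (edgeR), with approximate standard errors, filled where the adjusted p is under 0.05. TNC and GFAP stand above 0 and VIM and NES below 0 at both stages, and both comparisons share the 1 D0 library.

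Change inside the host was measured by comparing 4MPT with 2MPT. In astrocyte-like cells the test called 2.03% of 11678 genes, 1.62% higher and 0.411% lower. HOPX was the 1 member called, 198 ± 142 CPM (SD, n = 2) at 2MPT and 643 ± 86.5 CPM (SD, n = 2) at 4MPT, a rise of 1.71 ± 0.36 on the log2 scale (adjusted p = 0.012, edgeR). The rise was 1.15 without HIP_2MPT and 2.82 without PFC_2MPT, and the adjusted p was under 0.05 with each graft library left out, in fits where 1 stage has 1 library that is assumed to vary like the other stage. HIP_2MPT, the lowest of the 4 in HOPX, was also the library with the high neuronal sum in this class, whose part was not tested beyond leaving it out. The rise was 0.81 (adjusted p = 0.585) in cluster 12 alone, which was tried after the data had been seen, 1.16 (adjusted p = 0.159) at a coarser clustering, and 1.75 (adjusted p = 0.539) in DESeq2. The coarser astrocyte-like class held 445 (HIP) and 351 cells (PFC) at 4MPT. A coarser cluster led by SPARCL1, EGFR and CST3 was named glial progenitor and was not part of it. SPARCL1 and CST3 also led cluster 21. OBI1-AS1, which led cluster 26, was among the leading genes of the coarser astrocyte-like cluster. The coarser class was thus made up differently, and the overlap of cells was not counted. With cells classed one by one the stages could not be compared, as astrocytes at 2MPT numbered 2 (HIP) and 5 (PFC). The share of cluster 21 in the main class moved with HOPX. The part of that share in the rise was not tested beyond the values in cluster 12 alone and at the coarser clustering.

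The other 8 genes were not called in astrocyte-like cells. LIFR had a difference of 0.94 ± 0.31 (adjusted p = 0.137), MOXD1 of 1.11 ± 0.45 (adjusted p = 0.285), PTPRZ1 of 0.66 ± 0.28 (adjusted p = 0.315) and NES of -0.86 ± 0.30 (adjusted p = 0.177). For TNC (0.12), VIM (-0.10), GFAP (-0.26) and FAM107A (-0.45) the differences were under 0.5 on the log2 scale. MOXD1 was called without PFC_2MPT (3.11, adjusted p = 0.00242) and without PFC_4MPT (1.45, adjusted p = 0.0458) and rested on 2 UMIs in HIP_2MPT. NES was called lower without PFC_2MPT (-1.16, adjusted p = 0.0198). The median of the 9 genes was 0.12, beside -0.02 over all genes tested.

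In progenitor-like cells 0.901% of 13755 genes were called between 4MPT and 2MPT (edgeR, 0.589% higher and 0.313% lower), and none of the 9. Of the 9 genes, 5 (PTPRZ1, FAM107A, LIFR, MOXD1 and VIM) had an unadjusted p under 0.05 in edgeR, as had 1192 of all 13755 genes, and DESeq2 called 0 of the 9. FAM107A had the lowest adjusted p, at 30.7 ± 9.69 CPM (SD, n = 2) at 2MPT and 9.67 ± 7.68 CPM (SD, n = 2) at 4MPT (-1.68, adjusted p = 0.124), and was called lower in 5 of 17 alternatives, among them the fit with the graft site as a block (-1.64, adjusted p = 0.0106). HOPX differed by 0.69 with all libraries (adjusted p = 0.8) and was called at 1.98 without PFC_2MPT (adjusted p = 0.00375). Without that library PTPRZ1 (1.37, adjusted p = 0.00943) and MOXD1 (2.56, adjusted p = 0.00543) were called too, MOXD1 also without PFC_4MPT (2.14, adjusted p = 0.0222), and VIM was called lower without HIP_2MPT (-1.08, adjusted p = 0.043). FAM107A was called without HIP_2MPT (-1.93, adjusted p = 0.000937) and without PFC_4MPT (-2.80, adjusted p = 0.00412). Glial-progenitor-like cells were too few at 2MPT (5 and 24) for this test. With other classes that held enough cells, HOPX was called higher at 4MPT, by 1.45 (adjusted p = 0.0422) at a coarser clustering, where 79 of 10671 genes were called, and by 1.54 (adjusted p = 0.0118) with cells classed one by one, where 365 of 13041 were. The cluster at the coarser setting was another population, led by SPARCL1, EGFR and CST3. It scored 2.34 for glial progenitor and 2.30 for astrocyte markers. It held 1039 (HIP) and 744 cells (PFC) at 4MPT, while the astrocyte-like class held 445 and 351 there. SPARCL1 and CST3 also led the astrocyte-like cluster 21 of the main classes, which held 348 (HIP) and 281 cells (PFC) at 4MPT.

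**Figure D5:**
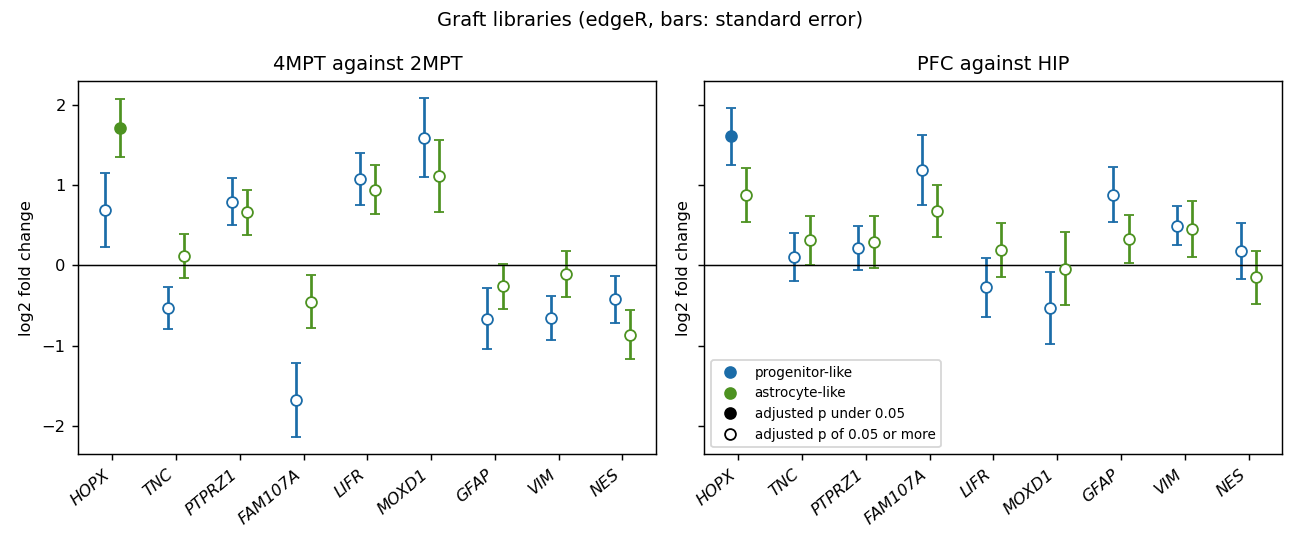
Log2 fold changes of the 9 genes between stages (4MPT against 2MPT) and sites (PFC against HIP) in progenitor-like and astrocyte-like cells of the grafts (edgeR), with approximate standard errors, filled where the adjusted p is under 0.05. HOPX is filled once in each panel, in astrocyte-like cells for the stage and in progenitor-like cells for the site.

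The sites were compared over the 4 graft libraries with the stage in the model, which leaves 1 residual degree of freedom. In progenitor-like cells 0.241% of 12010 genes were called, 0.183% higher and 0.0583% lower in PFC, and HOPX was the 1 member called (1.61 ± 0.35, adjusted p = 0.00623, edgeR). Its level was 57.4 CPM in PFC_2MPT against 17.4 in HIP_2MPT and 87.6 in PFC_4MPT against 32.4 in HIP_4MPT, so both PFC libraries lay above both HIP libraries. HIP_2MPT, the lowest in HOPX, was also the library with the high neuronal sum in this class. The part of that sum was not tested, since no library could be left out here. The estimate stayed at 0.87 to 1.81 under 13 alternatives, but the adjusted p was under 0.05 in 3 of them only and ranged from 0.00571 to 1.

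In astrocyte-like cells 0.0268% of 11179 genes were called between the sites (edgeR, 0.0179% higher and 0.00895% lower in PFC) and none of the 9. HOPX was at 0.88 ± 0.34 there, with both PFC libraries above the HIP library of their stage (edgeR adjusted p = 1), and was called at the coarser clustering (1.25, adjusted p = 0.0437). At that clustering the astrocyte-like class held 445 (HIP) and 351 cells (PFC) at 4MPT, against 682 and 545 in the main classes. It was also made up differently, as described for the stages. HOPX and FAM107A, 2 of the 9, had an unadjusted p under 0.05 in edgeR, as had 342 of all 11179 genes, and DESeq2 called 0 of the 9. At 4MPT alone there was 1 library a site and thus no replicate. PFC over HIP gave a ratio of 2.15 (1.76 to 2.62) for FAM107A, 1.35 (1.16 to 1.56) for GFAP and 1.21 (1.12 to 1.31) for HOPX. It was 1.20 (1.12 to 1.28) for TNC, 0.919 (0.875 to 0.964) for PTPRZ1, 0.877 (0.846 to 0.910) for VIM and 0.569 (0.404 to 0.791) for MOXD1. The intervals for LIFR and NES included 1. With thinned cells the interval for FAM107A reached 1 (1.45, 0.995 to 2.12), as did that for HOPX (1.07, 0.927 to 1.23). So did those for GFAP (1.10, 0.839 to 1.44) and PTPRZ1 (1.01, 0.928 to 1.11).

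The partners of TNC and PTPRZ1 were taken from a list of 9 ligands and matrix genes, of which 8 were tested in progenitor-like cells. MDK (midkine), BCAN (brevican) and NCAN (neurocan) rose in grafts against D0 at both stages and none fell. Over all genes tested, 36.5% were called at 2MPT and 38.7% at 4MPT, so 3 of 8 is near that share. NCAN was not called without HIP_2MPT at 2MPT (0.57, adjusted p = 0.322) or without PFC_4MPT at 4MPT (0.93, adjusted p = 0.115). MDK went from 66.0 CPM in D0 to 921, 1016, 815 and 924 CPM in grafts (3.49 at 2MPT, adjusted p = 7.4e-07, edgeR). BCAN went from 2.66 CPM to 27.1 and 33.7 CPM at 2MPT and 148 and 109 CPM at 4MPT, and was called between 4MPT and 2MPT as well, in progenitor-like (2.19 ± 0.30, adjusted p = 0.000531) and in astrocyte-like cells (1.45 ± 0.29, adjusted p = 0.00734), there not without HIP_4MPT (1.19, adjusted p = 0.069). PTN (pleiotrophin) was at 1354, 1487, 3041, 3626 and 3642 CPM in astrocyte-like cells and was not called. The integrin subunit ITGB1, which takes part in binding matrix proteins, was at 64.0 to 112 CPM in progenitor-like cells and was not called. The list's median change was 0.29 at 2MPT and 0.51 at 4MPT against D0.

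Of 9 partners of LIFR, 6 were tested in progenitor-like cells. Over all genes tested against D0, 36.5% were called at 2MPT and 38.7% at 4MPT. The kinases JAK1 (1.19, adjusted p = 0.00968) and JAK2 (1.58, adjusted p = 0.0205) rose at 2MPT against D0 in edgeR, and the co-receptor CNTFR (-1.14, adjusted p = 0.0159) and the feedback inhibitor SOCS3 (-1.35, adjusted p = 0.0472) fell. CNTFR was not called without HIP_2MPT (-0.82, adjusted p = 0.106), nor SOCS3 without PFC_2MPT (-1.30, adjusted p = 0.141). At 4MPT JAK1, JAK2 and SOCS3 were called in the same directions and CNTFR was not, although it was called lower without HIP_2MPT, PFC_2MPT or PFC_4MPT (-0.91, -0.90 and -1.02). JAK2 was not called without HIP_4MPT (0.88, adjusted p = 0.342). SOCS3 was at 15.4 CPM in D0, 8.69 and 7.36 at 2MPT, and 0 UMIs in HIP_4MPT and 1 UMI in PFC_4MPT, and was called between the stages (adjusted p = 0.013), but not without HIP_4MPT (adjusted p = 0.222). IL6ST, the shared signalling receptor, and STAT3 were not called in any comparison. The median of the list was 0.11 at 2MPT and -0.02 at 4MPT.

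Of 12 other intermediate filament genes 9 were tested, and 4 fell at both stages against D0 with none higher: INA, NEFL and NEFM, which build neurofilaments, and the keratin KRT18. Over all genes tested, 14.8% were called lower at 2MPT and 15.9% at 4MPT, and 21.8% and 22.7% were called higher. NEFL held 157 UMIs in D0 and 0 to 2 in each graft library, NEFM 200 and 1 to 4, and KRT18 300 and 0 to 1, so these 3 carry no fold here. NEFM was not called at 2MPT without PFC_2MPT (adjusted p = 0.182). INA went from 21.7 CPM in D0 to 9.77, 3.49, 2.31 and 7.25 CPM in grafts (-2.32 at 2MPT, adjusted p = 0.00378, edgeR). The nuclear lamins LMNA, LMNB1 and LMNB2 were not called. Of 5 other genes known from outer radial glia 4 were tested. PDGFD rose (3.09 ± 0.51 at 2MPT, adjusted p = 0.000133), SLCO1C1, a thyroid hormone transporter, rose from 0 UMIs in D0 to 18.1 to 30.6 CPM in grafts, and LGALS3BP fell (-1.43 ± 0.33, adjusted p = 0.00264). BMP7, a secreted morphogen, was at 28.2 to 101 CPM and was not called. Of 6 genes known from ventricular or truncated radial glia 5 were tested. CRYAB, a small heat shock protein, rose (4.11 ± 0.92 at 2MPT, adjusted p = 0.00191) and CCN2, a matricellular protein, fell from 420 UMIs in D0 to 0 or 1 in each graft library (adjusted p = 2.5e-05). PALLD fell at 2MPT (-0.83, adjusted p = 0.0412), not without HIP_2MPT (-0.78, adjusted p = 0.131) or PFC_2MPT (adjusted p = 0.064). CCN1 fell at 4MPT against D0 (-1.36, adjusted p = 0.00804) and between 2MPT and 4MPT in astrocyte-like cells (-1.48, adjusted p = 0.0101), in neither case without HIP_4MPT (-0.88, adjusted p = 0.1, and -1.26, adjusted p = 0.243). None of the listed genes tested was called between PFC and HIP by edgeR.

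Genes most like each member were ranked by Pearson's r of log2(CPM + 1) over 17 class-by-library sums, among 10109 genes with a mean of at least 10 CPM. The sums share libraries, depth and class markers, so r is a description. HOPX was most like PON2 (0.964), CSPG5 and PLEKHB1, TNC most like LITAF (0.977), MT2A and CNPY4, and GFAP most like DEC1 (0.973), MSTN and SLCO1C1. VIM was most like SOX3 (0.992), IFI44L and TBL1X, and NES most like NADK (0.927), SPARC and FGFR3. PTPRZ1 was most like CAMK2D (0.945), LIFR like GATM (0.955), MOXD1 like PMP2 (0.957) and FAM107A like FZD8 (0.960). Among the members themselves HOPX and LIFR (0.912), LIFR and MOXD1 (0.905) and TNC and GFAP (0.879) were the closest pairs. GFAP was nearly unrelated to NES (0.0604) and VIM (0.217), while VIM and NES were at 0.837.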

How the data were processed

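UMI counts per gene and cell were deposited by the authors as 10x 3′ V3 matrices against GRCh38, made with Cell Ranger 3.1.0 (D0) and 5.0.0 (grafts) per the file headers, together with matrices of a human-mouse reference. Annotation release and intron counting are not given in the sources used here. The 32732 genes common to both annotations were used. Human cells were kept at more than 500 UMIs and genes, a complexity (log10 genes divided by log10 UMIs) above 0.80, a mitochondrial share under 0.15 and a human share above 0.8 (34390 cells). No doublet caller was run. Cells were clustered with Seurat 5.3.0 (sctransform, RPCA, 2500 features, 40 components, resolution 1.6) without the 9 genes, and named by marker lists. Counts were summed per class and library (50 cells or more) and tested with edgeR 4.0.16 (filterByExpr, TMM, quasi-likelihood, Benjamini-Hochberg at 0.05), with D0, 2MPT and 4MPT as groups, D0 being assumed to vary like the grafts, or with site and stage. P-values measure the spread between libraries, which may be technical. The members and lists were chosen with earlier results of these data known. The named genes were the 9 members, listed partners that were called or above 50 CPM in the class, and the 3 genes most like each member. Tests were tried on simulated data, with 100 genes changed 2-fold and 100 changed 4-fold. Of the 2-fold changes, 4MPT against 2MPT found 20 in progenitor-like and 8 in astrocyte-like cells, and PFC against HIP found 16 and 10. Of the 4-fold changes these found 94, 79, 76 and 72. A gene that was not called may thus still have changed. Alternatives included DESeq2 1.42.0, other filters and classes, and each graft library left out.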

Additional observations from a re-analysis of the deposited data

Results flagged for a closer look

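VIM in astrocyte-like cells moved in opposite directions at the sites between 2MPT and 4MPT. The log2 ratio of 4MPT over 2MPT was 0.56 in HIP and -0.70 in PFC, each beyond counting error. HIP_2MPT, the lowest of the grafts in VIM in this class (2036 CPM), was also the library with the high neuronal sum (1541 CPM). The part of that sum was not tested. With 1 library for each site and stage, the difference between the sites was not tested.

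Mouse copies of all 9 genes were seen in cells classed as human, in the human-mouse matrices of the 4 graft libraries, 8 of them above the limit of 3 UMIs that a count of 0 allows. Mouse Gfap gave 389 UMIs there, 16.1% of the mouse and human GFAP UMIs of these cells together, and Fam107a gave 143 (12.7%). Vim gave 178, Hopx 111 (2.43%), Ptprz1 84, Lifr 25, Tnc 4, Nes 4 and Moxd1 1. Mouse Gfap was spread over the classes, at 15.3 UMIs per 1000 astrocyte-like cells, 18.7 per 1000 glial-progenitor-like, 15.8 per 1000 progenitor-like and 12.3 per 1000 neurons, whereas human GFAP was at 569, 153, 185 and 10.0. Human GFAP counted 2033 UMIs with the human-mouse reference and 2041 with the human one.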

How the results depend on the processing

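No paired analysis by replicate number was possible because each group had replicate 1 only. Libraries were paired by site in a fit with the graft site as a block, which called 257 genes between stages in astrocyte-like and 293 in progenitor-like cells and, of the 9 genes, added FAM107A in the latter. Leaving out a library could not be fitted for PFC against HIP (no residual degrees of freedom), nor could astrocyte-like cells classed one by one. Glial-progenitor-like cells could be tested only under other classes: 4MPT against 2MPT called 79 genes at resolution 0.8 and 365 with cells classed one by one, and PFC against HIP called 2. Thinned sums, cluster 12 alone, and fits without cluster 19 or with cluster 26 were added after the data had been seen.

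At 2MPT against D0, thinned sums called 2769 genes, DESeq2 3295 and leave-one-out fits 4007 to 4999. At 4MPT against D0 these were 2738, 3446 and 3499 to 5701. Between stages in astrocyte-like cells, cluster 12 alone gave 71, DESeq2 75, no filter 490 and leave-one-out 174 to 565 (565 without PFC_2MPT). In progenitor-like cells, cells classed one by one gave 49, no filter 341 and leave-one-out 135 to 437 (437 without PFC_2MPT). PFC against HIP in astrocyte-like cells gave 1 in cluster 12, 18 at resolution 0.8, 1 under 0.10 mitochondrial share, 0 above 1000 UMIs, 17 with no filter, 0 without stage and 18 with cluster 26. In progenitor-like cells it gave 2 thinned, 0 classed one by one, 1 at resolution 0.8, 1 in DESeq2, 9 with the dual reference, 10 under 0.10 mitochondrial share, 1 above 1000 UMIs, 0 without stage, 1 in radial glia alone, 7 at a human share over 0.9 and 1 without cluster 19. Unthinned shares of cells were a median 2.34 times the thinned ones, and levels with cells classed one by one 1.25 times.

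Directions turned as follows, and the causes were not tested. With cells classed one by one, 2MPT against D0 was 0.42 for FAM107A (0.15 in radial glia alone) and 0.058 for HOPX, 4MPT against D0 was 0.57 for HOPX, 4MPT against 2MPT was -0.0089 for MOXD1 in progenitor-like cells, and PFC against HIP was 0.24 for LIFR and -0.19 for NES. In astrocyte-like cells between stages VIM was 0.17 in cluster 12 and 0.21 at resolution 0.8. Leaving out libraries moved it from -0.56 to 0.57, FAM107A from -1.10 to 0.027 and TNC from -0.061 to 0.33, and in progenitor-like cells HOPX from -0.22 to 1.98 and VIM from -1.08 to 0.0061. HOPX at 4MPT against D0 moved from -1.34 to 0.14. PFC against HIP in astrocyte-like cells was 0.40 for MOXD1 in cluster 12, 0.45 in DESeq2 and 0.083 with cluster 26, and 0.10, 0.21 (resolution 0.8) and 0.029 for NES. The PFC_4MPT over HIP_4MPT ratio of PTPRZ1 was 1.01 with thinned cells.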
